A study of Mus musculus with 9 samples.

Results

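Peritoneal macrophages of M-Shp2-/- mice given imiquimod (IMQ) were compared with peritoneal macrophages of wild-type mice given IMQ, over the 11450 of 54059 genes in the deposited table whose mean FPKM was at least 1 across the 9 libraries of the series. FPKM are fragments per kilobase of transcript, scaled to the reads of the library, so that levels can be compared between genes. The comparison used 6 of the 9 libraries, 3 of each genotype. All mice were C57BL/6, and the labels give an age of 8 weeks, which is the lower end of the range in the methods of the paper. They received starch broth in the peritoneal cavity, the cavity was lavaged after 3 days, and the adherent cells were cultured and given IMQ, a small-molecule agonist of TLR7, for 4 h. The M-Shp2-/- mice, labelled SHP2lyz2-/-, carry floxed *Shp2* alleles and a Cre recombinase under the *Lyz2* promoter, which is active in monocytes, macrophages and granulocytes. The controls are labelled wild type, so the loss of SHP2 and the presence of Cre cannot be told apart. All 6 libraries had received IMQ, so a difference in the response to IMQ and a difference that was there before IMQ cannot be told apart either. The labels do not say whether the 3 libraries of a group came from separate mice, and p values therefore measure the spread between these libraries.

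SHP2 is a cytoplasmic tyrosine phosphatase with a pair of SH2 domains, through which it binds phosphorylated docking proteins such as GAB1, GAB2 and SIRPA and promotes signaling through RAS and ERK. TLR7 sits in endosomes, binds single-stranded RNA or imidazoquinolines such as IMQ, and signals through MyD88 and the IRAK kinases to NF-κB, the MAP kinases and IRF factors. In macrophages these routes switch on inflammatory cytokines, chemokines and prostaglandin synthesis within hours. Type I interferon, or interferon gamma from other cells, acts through STAT factors on a further set of genes for antiviral proteins, GTPases of the GBP and IRG families and antigen presentation.

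In M-Shp2-/- macrophages the genes that fell included those of the inflammatory cytokines IL-6, IL-1α and IL-1β and of the IL-1 receptor antagonist. The genes of GM-CSF and of a prostaglandin synthase passed the same threshold less firmly, and none of these genes passed it in every alternative setting. Interferon-responsive genes and CC chemokine genes lay lower as groups, the former to an extent that depended on a single wild-type library. No gene was higher at the thresholds of the test. Among the genes whose libraries did not overlap, those standing higher in M-Shp2-/- macrophages included the lysozyme gene *Lyz1*, linker histone genes and targets of the oxidative stress factor NRF2.

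The depth behind each library was 44371145, 50979545 and 42530178 reads in wild-type and 43181863, 41150651 and 45589720 reads in M-Shp2-/- replicates 1, 2 and 3, as recovered from the steps between low FPKM values. The correlation of log2 values with the other libraries of the same group was on average 0.980, 0.979 and 0.9752 for the wild-type libraries and 0.980, 0.973 and 0.961 for the M-Shp2-/- libraries. Wild-type replicate 3 and M-Shp2-/- replicate 3 stood apart. The closest pair was M-Shp2-/- replicates 1 and 2, with a correlation of 0.992, and the most distant pair within a group was M-Shp2-/- replicates 2 and 3, with 0.954. On the first principal component, which held 44.7% of the variance, wild-type replicate 3 lay at 37.6 and all other libraries between -27.6 and 15.4. On the next component, with 34.8% of the variance, M-Shp2-/- replicate 3 lay at 36.5 and the others between -25.3 and 11.5. Values without wild-type replicate 3 or M-Shp2-/- replicate 3 are therefore also given, for single genes and for most of the lists.

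*Ptpn11*, the gene of SHP2 (ENSMUSG00000043733, chromosome 5, 121130533 to 121191397, GRCm38), was measured at 45.8, 44.0 and 39.99 FPKM in wild-type and 18.6, 17.8 and 18.9 FPKM in M-Shp2-/- macrophages. The groups did not overlap, and the M-Shp2-/- libraries were close to each other, so the labels and the deleted gene match. The mean in M-Shp2-/- macrophages was 42.5% of that in wild type, and *Ptpn11* fell by 1.19 on the log2 scale (standard error 0.10, adjusted p = 0.0168 from limma). FPKM cover the whole gene, so transcripts that lack the floxed part and transcripts of cells that escaped deletion cannot be told apart. *Tlr7*, the gene of the receptor for IMQ, had 89.6, 87.0 and 103 FPKM in wild-type and 73.8, 88.5 and 72.0 FPKM in M-Shp2-/- macrophages, with overlapping groups.

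The cells carried the markers of macrophages. Of 12 macrophage markers, 11 had a mean FPKM of at least 1, and their summed FPKM was 12379, 15211 and 13243 in wild-type and 9513, 9524 and 10112 in M-Shp2-/- libraries, with *Lyz2* as the most abundant. No other marker list came near this level. The lower sums in M-Shp2-/- libraries mostly follow *Lyz2*, at 7440, 10228 and 7951 FPKM in wild-type and 4863, 4743 and 5407 FPKM in M-Shp2-/- libraries. The 12 markers of resident large peritoneal macrophages, led by *Serpinb2*, summed to 345, 793 and 299 FPKM in wild-type and 270.4, 157 and 888 FPKM in M-Shp2-/- libraries, and 10 markers of monocytes or recruited macrophages, led by *Fn1*, to 472, 1175 and 460.2 FPKM and 471, 355 and 976 FPKM. Wild-type replicate 2 and M-Shp2-/- replicate 3 had the high sums in both lists, but these sums follow *Serpinb2* and *Fn1*, and some other members, most of them in the first list, were lowest of their group in M-Shp2-/- replicate 3. The sums of these 2 libraries were also the high ones for 9 fibroblast markers, led by *Col1a1*, at 68.5, 312 and 53.3 FPKM in wild-type and 139, 54.3 and 599 FPKM in M-Shp2-/- libraries, and for 9 mesothelial markers, led by *Wt1*, at 4.28, 11.8 and 2.48 FPKM and 7.60, 3.05 and 14.4 FPKM.

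Lymphocyte markers summed to far less than the macrophage markers. The 8 B cell markers, led by *Igkc*, summed to 17.0, 39.5 and 114 FPKM in wild-type and 64.2, 29.4 and 436 FPKM in M-Shp2-/- libraries, highest in replicate 3 of either genotype. Of 10 T cell markers only *Lck* had a mean FPKM of at least 1, and the list summed to 2.60, 4.84 and 10.39 FPKM in wild-type and 2.84, 2.14 and 6.90 FPKM in M-Shp2-/- libraries. None of the 6 NK cell markers had a mean FPKM of at least 1. They were led by *Nkg7* and summed to 0.247, 1.36 and 3.83 FPKM in wild-type and 0.0865, 0.202 and 1.34 FPKM in M-Shp2-/- libraries. Both lists were highest in replicate 3 of each genotype. The 10 neutrophil markers, led by *Csf3r*, summed to 125, 169 and 159 FPKM and 105, 105 and 179 FPKM, and lists of mast cells (with *Fcer1a* at 0 in all 6 libraries), eosinophils (*Ear1* and *Ear6* at 0), dendritic cells and erythroid cells stayed at or under 7.69 FPKM in every library. In such mixtures, fewer cells of a type and less RNA per cell cannot be told apart. *Xist* was present in every library, and the Y-linked genes *Ddx3y*, *Eif2s3y*, *Kdm5d* and *Uty* were listed at 0 in all 6.

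**Figure D1:**
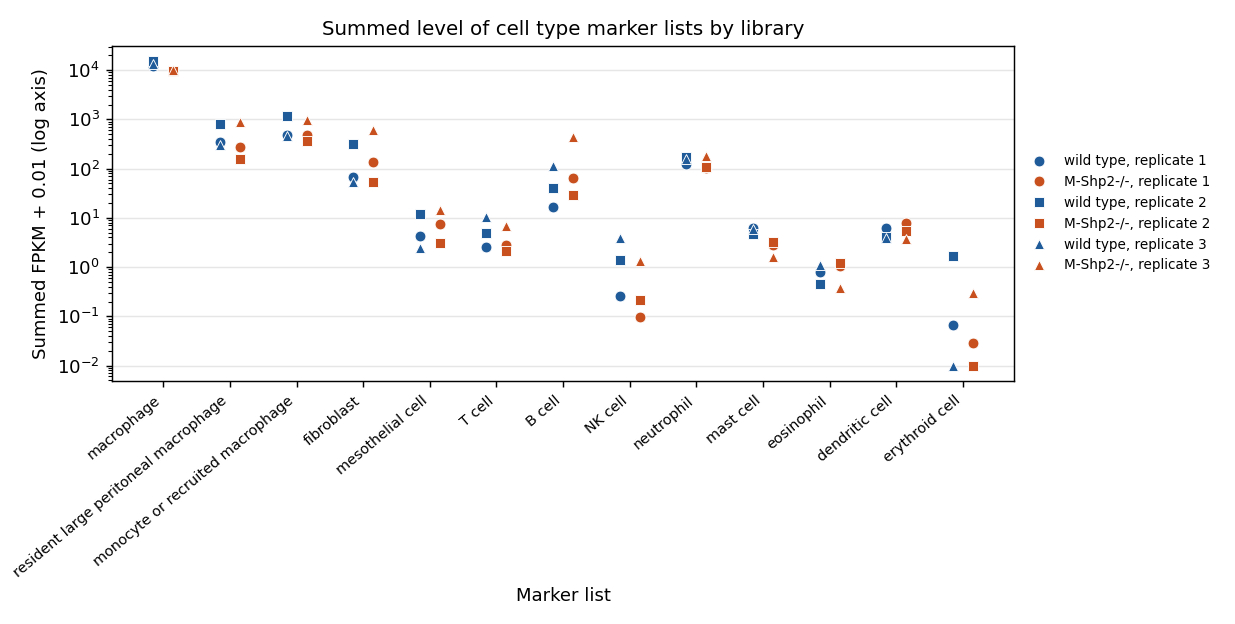
Summed FPKM of each cell type marker list (log axis, 0.01 added) in the 3 wild-type and 3 M-Shp2-/- libraries, where each point is a library. The macrophage list lies at 9513 FPKM or more in every library, while the fibroblast list reaches 599 FPKM in M-Shp2-/- replicate 3 and 312 FPKM in wild-type replicate 2.

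With limma on log2(FPKM + 1), 1 of the 11450 genes tested (0.00873%) had an adjusted p no higher than 0.005 together with a log2 fold change of 1 or more in size, *Il6*. When the adjusted p could be as high as 0.05, 10 genes (0.0873%) were lower in M-Shp2-/- macrophages and 0 (0%) were higher. At an unadjusted p under 0.05, limma gave 294 lower and 910 higher genes with FPKM as deposited, 531 and 390 after median-of-ratios scaling and 469 and 413 after quantile normalization, so which direction had more genes depended on the scaling. The 910 became 531 without wild-type replicate 3 and 270, 499 and 1859 without M-Shp2-/- replicate 1, 2 and 3. With FPKM as deposited the smallest adjusted p of a higher gene was 0.103. With limma's voom on reads recovered from the FPKM, 9 genes were lower and 0 higher at that looser threshold. With 3 libraries a side, the smallest two-sided p that an exact permutation test allows is 0.1. The calls depended on single libraries. Without wild-type replicate 1, 2 or 3, the number of lower genes at the looser threshold was 2, 1 and 5, and without M-Shp2-/- replicate 1, 2 or 3 it was 1, 1 and 8, while 0 genes passed 0.005 in any of these 6 fits. The lower genes also depended on the other settings. Of 17 alternative settings, leaving out each library included, *Il6* had an adjusted p of up to 0.05 in 16, and lost it when all 9 libraries were fitted together (0.000778 to 0.0820 over the alternatives). *Ptpn11* had it in 12, *Il1b*, *Il1a* and *Il1rn* in 11 each, *Gm14023* and *Tarm1* in 9 each, *Flrt3* in 7, *Ptgs2* in 6 and *Csf2* in 4. *Il1b* and *Il1a* too were above 0.05 in the fit of all 9 libraries.

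For a description beyond these 10 genes, genes are called separated where all 3 M-Shp2-/- libraries lie below, or all 3 above, all 3 wild-type libraries. In this sense 2187 genes (19.1%) were separated, 352 lower (3.07%) and 1835 higher (16.0%). The difference was larger than 1 on the log2 scale in 78 of the lower and 17 of the higher genes, so the lower genes were fewer but included more of the large differences. The whole distribution was shifted: 8864 of the 11450 genes (77.4%) had a positive log2 fold change, with a median of 0.15, and median-of-ratios scaling of the libraries brought the median to 0.01, with 5848 genes positive. This scaling moves log2 fold changes downward, and 1695 of the 1835 separated higher genes had a positive one after it. Without wild-type replicate 3 the median was 0.08, with 617 genes lower and 2179 higher in the separated sense. Without M-Shp2-/- replicate 3 it was 0.18, with 887 genes lower and 5059 higher. Lists of genes by function are described against the median of 0.15 and the shares of 3.07% and 16.0%, without a test over the list.

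**Figure D2:**
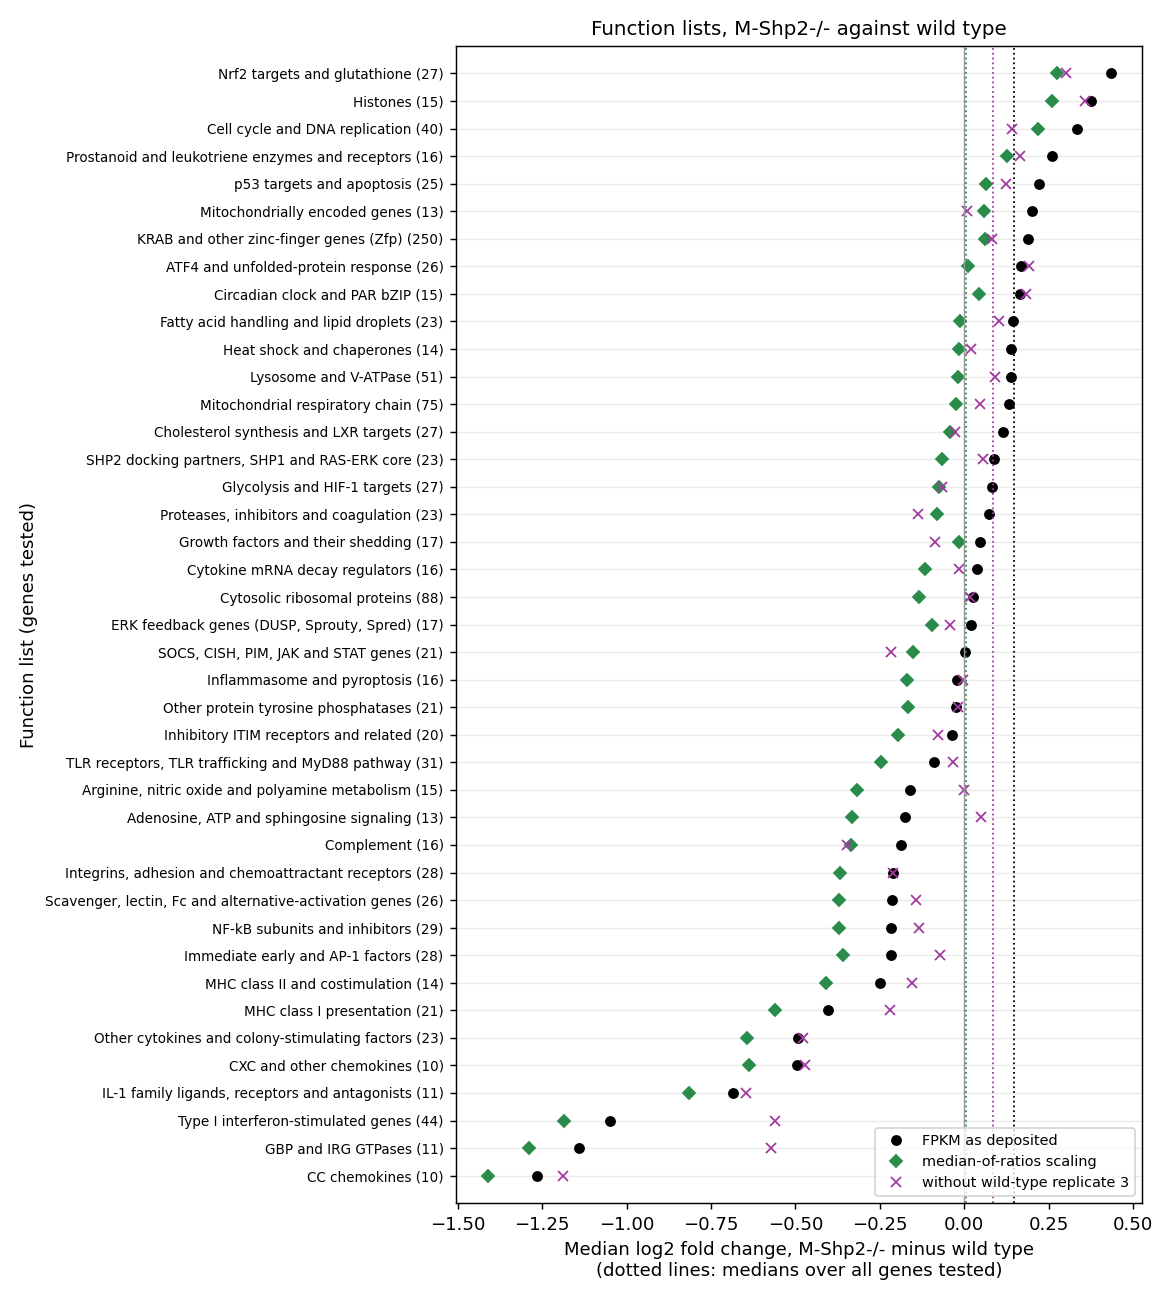
Median log2 fold change, M-Shp2-/- minus wild type, of 41 lists of genes by function, with FPKM as deposited (circles), after median-of-ratios scaling (diamonds) and without wild-type replicate 3 (crosses). The lists of CC chemokines, GBP and IRG GTPases and type I interferon-stimulated genes have the lowest medians, -1.26, -1.14 and -1.05, and the latter pair moves to -0.57 and -0.56 without wild-type replicate 3, while the lists of NRF2 targets and histones have the highest, 0.43 and 0.38, which scaling lowers to 0.28 and 0.26. Lists between the median of 0.15 and 0 turn negative with scaling.

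The IL-1 family held 3 of the 10 lower genes. Of 16 genes of IL-1 family ligands, receptors and antagonists, 11 were tested, 9 were lower and 3 separated, all of them lower, and the median log2 fold change was -0.68 (-0.82 after scaling, -0.65 without wild-type replicate 3 and -0.91 without M-Shp2-/- replicate 3, where 7 were separated lower). *Il1b*, which encodes the secreted cytokine IL-1β made as an inactive precursor, had 4291, 4108 and 3143 FPKM in wild-type and 763, 706 and 594 FPKM in M-Shp2-/- macrophages. Wild-type replicate 3 was the lowest of its group and still far above the highest M-Shp2-/- library. *Il1a*, the gene of the other IL-1 receptor agonist, had 1215, 1373 and 1048 FPKM in wild-type and 354, 344 and 326 FPKM in M-Shp2-/- macrophages. *Il1rn*, which encodes the antagonist of the same receptor, had 348, 440.4 and 445 FPKM in wild-type and 144, 147 and 131 FPKM in M-Shp2-/- macrophages. In all 3 genes the M-Shp2-/- libraries were close to each other and far from the wild-type libraries. *Il1b* fell by 2.48 (standard error 0.16, adjusted p = 0.00781 from limma), *Il1a* by 1.82 (standard error 0.12, adjusted p = 0.00781 from limma) and *Il1rn* by 1.53 (standard error 0.12, adjusted p = 0.0168 from limma) on the log2 scale. *Gm14023*, an annotated gene that overlaps *Il1a* on the opposite strand, had 15.5, 19.0 and 18.0 FPKM in wild-type and 4.92, 5.06 and 5.80 FPKM in M-Shp2-/- macrophages and fell by 1.56 (adjusted p = 0.0172 from limma). The strand used in counting is not given in the sources used here, so its reads and those of *Il1a* cannot be told apart, and *Il1b* likewise overlaps *Il1bos*. Summed over the family, the level was 5913, 6033 and 4699.8 FPKM in wild-type and 1309.8, 1245 and 1152 FPKM in M-Shp2-/- libraries, most of it from *Il1b* and *Il1a*.

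Among other cytokines and colony-stimulating factors, 23 of 38 genes were tested, 17 were lower and 6 higher, and 8 were separated lower against 1 higher, with a median log2 fold change of -0.49 (-0.64 after scaling and -0.61 without M-Shp2-/- replicate 3). *Il6* (ENSMUSG00000025746, chromosome 5, 30013114 to 30019981), the gene of the cytokine IL-6 that signals through gp130 and STAT3, had 221, 237 and 258 FPKM in wild-type and 51.3, 54.1 and 51.3 FPKM in M-Shp2-/- macrophages. No library of either group was far from its mean, and *Il6* fell by 2.17 on the log2 scale (standard error 0.09, adjusted p = 0.00117 from limma). *Csf2*, which encodes GM-CSF, had 12.3, 9.24 and 13.8 FPKM in wild-type and 2.92, 2.55 and 1.84 FPKM in M-Shp2-/- macrophages. It fell by 1.89 (standard error 0.20, adjusted p = 0.0442 from limma), with the M-Shp2-/- libraries well apart from the lowest wild-type library, replicate 2, although *Csf2* overlaps *Gm12223* on the opposite strand. Its adjusted p was above 0.05 with either other pseudocount, with no filter, with no trend, with all 9 libraries, with the replicate number as a block, with voom and in each of the 6 fits without a library (0.0401 to 0.258 over all alternatives). *Il23a*, the gene of the p19 subunit of IL-23, had 7.86, 4.62 and 10.1 FPKM in wild-type and 0.931, 1.43 and 2.57 FPKM in M-Shp2-/- macrophages. Its groups did not overlap either, but the spread within wild type was wide (log2 fold change -1.68, adjusted p = 0.375 from limma). *Lif* and *Osm*, genes of the IL-6 family that were chosen after their values were seen, had 75.3, 83.9 and 95.2 FPKM in wild-type and 32.0, 30.8 and 54.8 FPKM in M-Shp2-/- macrophages, and 49.3, 63.6 and 53.9 FPKM in wild-type and 23.8, 18.9 and 34.9 FPKM in M-Shp2-/- macrophages. The highest M-Shp2-/- value of both was that of replicate 3, without which *Lif* passed an adjusted p of 0.05. *Tnf* overlapped between groups at 4216, 2375 and 6247 FPKM in wild-type and 2573, 2733 and 3709 FPKM in M-Shp2-/- macrophages. *Csf1*, the gene of the growth factor that macrophages depend on for survival, was the separated gene in the other direction, at 21.6, 21.3 and 18.1 FPKM in wild-type and 50.04, 30.4 and 41.2 FPKM in M-Shp2-/- macrophages (log2 fold change 0.94, adjusted p = 0.388 from limma).

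The 300 bases from 250 before to 50 after the transcription start of *Il6*, *Il1a* and *Il1rn*, genes that fell together, are shown from RefSeq (GRCm38.p6), 5′ to 3′ on the strand of the gene, at chr5:30012864-30013163, plus strand for *Il6*, at chr2:129309923-129310222, minus strand for *Il1a* and at chr2:24336610-24336909, plus strand for *Il1rn*. Capitals mark matches on either strand to the κB motif GGGANNTTC or the AP-1 motif TGANTCA, which did not overlap.
Il6: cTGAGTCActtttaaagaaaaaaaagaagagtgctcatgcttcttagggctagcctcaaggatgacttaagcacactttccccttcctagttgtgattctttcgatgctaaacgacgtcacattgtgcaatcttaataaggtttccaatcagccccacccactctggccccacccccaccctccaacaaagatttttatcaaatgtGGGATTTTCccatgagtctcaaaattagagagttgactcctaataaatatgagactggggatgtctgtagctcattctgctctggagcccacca
Il1a: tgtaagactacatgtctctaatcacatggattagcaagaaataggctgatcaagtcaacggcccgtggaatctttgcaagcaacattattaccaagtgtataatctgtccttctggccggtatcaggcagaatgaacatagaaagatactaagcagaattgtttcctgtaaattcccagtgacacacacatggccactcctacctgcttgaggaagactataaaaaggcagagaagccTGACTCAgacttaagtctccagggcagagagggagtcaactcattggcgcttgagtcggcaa
Il1rn: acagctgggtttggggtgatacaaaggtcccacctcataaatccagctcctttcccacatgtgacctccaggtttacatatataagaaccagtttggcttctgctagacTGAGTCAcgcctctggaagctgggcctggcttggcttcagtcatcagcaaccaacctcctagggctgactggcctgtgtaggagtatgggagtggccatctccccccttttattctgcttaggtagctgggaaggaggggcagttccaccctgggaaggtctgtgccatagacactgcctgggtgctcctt
The *Il6* window holds 1 κB match near the start and 1 AP-1 match at its far end, and the windows of *Il1a* and *Il1rn* hold 1 AP-1 match each. Of the 11450 tested genes, 8272 had a window of this length, and of these 308 (3.72%) hold the κB motif and 406 (4.91%) the AP-1 motif. In the IL-1 family list 1 of 10 windows holds the κB motif and 2 of 10 the AP-1 motif, and in the list of other cytokines 4 of 17 hold each. The 2 IL-1 family windows with the AP-1 motif are those of *Il1a* and *Il1rn* shown here. Windows of other genes that fell, *Il1b*, *Csf2* and *Ptgs2* among them, are not shown, so the motif is not a shared feature of the lower genes. Outside these lists, the κB and AP-1 motifs are in 2 and 9 of 35 windows of interferon-stimulated genes and in 2 of 7 windows of GBP and IRG GTPase genes each. A match is a description of these letters and not a binding site, and windows without a match can have sites elsewhere. The κB motif was shortened by a letter after the data were seen, and the lists were chosen with earlier results of these data known, so these shares are no test.

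*Ptgs2*, which encodes the inducible cyclooxygenase COX-2, had 1589, 1442 and 2047 FPKM in wild-type and 469, 582 and 479 FPKM in M-Shp2-/- macrophages. The groups were far apart, with wild-type replicate 3 the highest library and M-Shp2-/- replicate 2 the highest of its group, and *Ptgs2* fell by 1.72 on the log2 scale (standard error 0.16, adjusted p = 0.0299 from limma). Its adjusted p was above 0.05 with median-of-ratios scaling, with no filter, with no trend, with all 9 libraries, with the replicate number as a block and in each of the 6 fits without a library (0.0159 to 0.272 over all alternatives). The list of enzymes and receptors of the prostanoid and leukotriene pathways did not follow it. Of 16 genes tested, *Ptgs2* included, 4 were lower and 12 higher, with a median of 0.26 (0.13 after scaling, 0.17 without wild-type replicate 3 and 0.18 without M-Shp2-/- replicate 3). *Ptgir*, the gene of the prostacyclin receptor, was separated in the opposite direction, at 29.8, 29.2 and 27.1 FPKM in wild-type and 44.2, 47.9 and 48.3 FPKM in M-Shp2-/- macrophages. Its spread within either group was small, with a log2 difference of 0.69 (adjusted p = 0.116 from limma).

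*Tarm1* and *Flrt3* complete the 10 genes. *Tarm1*, which encodes an activating receptor of myeloid cells that pairs with the Fc receptor gamma chain, had 70.9, 77.0 and 68.9 FPKM in wild-type and 38.3, 38.4 and 36.0 FPKM in M-Shp2-/- macrophages and fell by 0.93 (standard error 0.09, adjusted p = 0.0299 from limma). It belongs to a list of 20 tested genes of inhibitory and related paired receptors, of which 3 were separated, all lower. The other separated members were *Cd33*, a Siglec, at 88.5, 124 and 122 FPKM in wild-type and 79.4, 76.5 and 72.4 FPKM in M-Shp2-/- macrophages, and *Clec12a*, an inhibitory C-type lectin, at 42.9, 36.4 and 45.4 FPKM in wild-type and 29.1, 33.8 and 18.7 FPKM in M-Shp2-/- macrophages. In *Clec12a* M-Shp2-/- replicate 3 was the lowest library, and the log2 fold change of -0.63 was -0.39 without it. *Flrt3*, the gene of a transmembrane protein with leucine-rich repeats that acts in cell adhesion, had 21.99, 26.4 and 25.2 FPKM in wild-type and 11.4, 11.6 and 11.3 FPKM in M-Shp2-/- macrophages and fell by 1.04 (standard error 0.11, adjusted p = 0.0442 from limma). These were the smallest differences among the 10 genes, and in both of them the spread within either group was small. Neither passed an adjusted p of 0.05 with no trend, with the block or in any of the 6 fits without a library, and *Flrt3* did not with a pseudocount of 5 or with no filter either (0.0131 to 0.272 over all alternatives for *Tarm1* and 0.00799 to 0.437 for *Flrt3*).

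**Figure D3:**
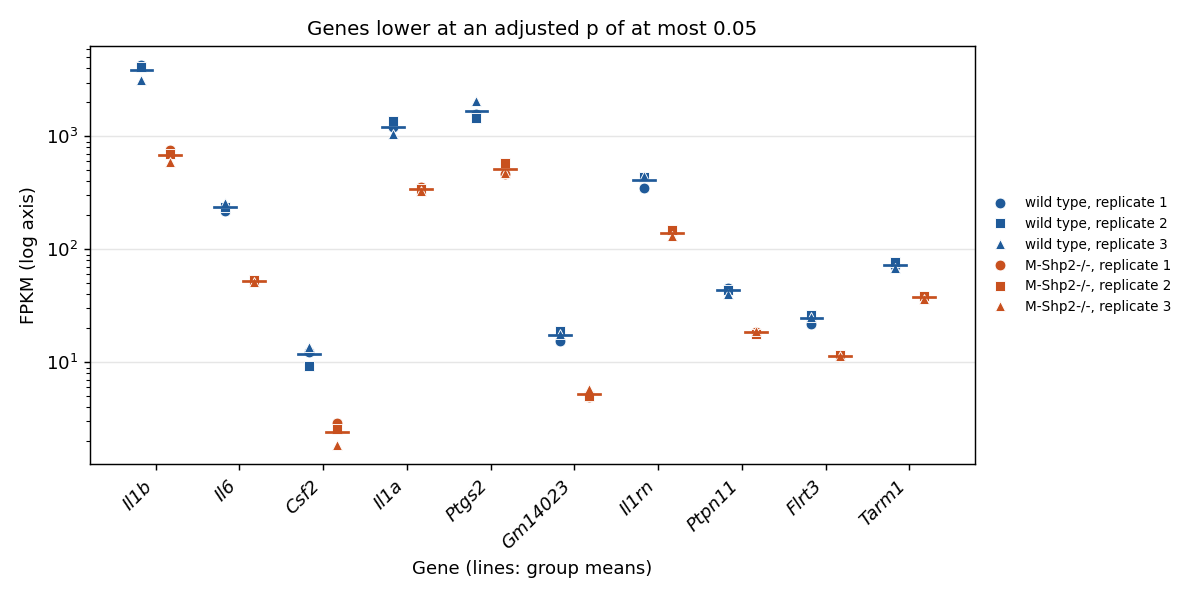
FPKM (log axis) of the 10 genes lower in M-Shp2-/- macrophages with adjusted p values up to 0.05 from limma, each point a library and lines at the group means. The 3 M-Shp2-/- libraries lie below the 3 wild-type libraries in every one of them, with *Il1b* at 4291, 4108 and 3143 against 763, 706 and 594 FPKM.

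CC chemokines lay lower as a list. Of 10 genes tested, 9 were lower and 4 separated, all lower. The median log2 fold change was -1.26 (-1.41 after scaling and -1.19 without wild-type replicate 3, and -1.49 without M-Shp2-/- replicate 3, where 8 were separated lower), and 0 passed an adjusted p of 0.05 from limma, with 5 lower at an unadjusted p under 0.05. *Ccl5*, a chemokine for T cells and monocytes, had 382, 309.7 and 552 FPKM in wild-type and 96.9, 122 and 89.1 FPKM in M-Shp2-/- macrophages (log2 fold change -1.97, adjusted p = 0.0737 from limma). *Ccl2* and *Ccl7*, ligands of CCR2 that draw in monocytes, had 1128, 840.1 and 1085 FPKM in wild-type and 342, 302 and 444 FPKM in M-Shp2-/- macrophages, and 313, 312 and 375 FPKM in wild-type and 75.1, 53.3 and 183 FPKM in M-Shp2-/- macrophages. In *Ccl7*, M-Shp2-/- replicate 3 was well above the other libraries of its group, and without it *Ccl7* passed an adjusted p of 0.05. *Ccl9*, a ligand of CCR1, had 869, 499.7 and 662 FPKM in wild-type and 242, 286 and 205 FPKM in M-Shp2-/- macrophages. The most abundant member, *Ccl3*, overlapped between groups at 4415, 3761 and 4625 FPKM in wild-type and 3071, 2909.6 and 4023 FPKM in M-Shp2-/- macrophages. Of 10 tested CXC and other chemokines, 8 were lower and 1 was separated, lower, with a median of -0.49 (-0.64 after scaling and -0.95 without M-Shp2-/- replicate 3, where 7 were separated lower). *Cxcl2*, the neutrophil chemokine that was the most abundant of them, had 6580.0, 6162 and 7742 FPKM in wild-type and 3396, 2983 and 6782 FPKM in M-Shp2-/- macrophages, with M-Shp2-/- replicate 3 inside the range of wild type.

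Chemokine receptors and adhesion genes also lay lower. Of 28 genes tested, 20 were lower, and 7 were separated lower against 0 higher, with a median of -0.21 (-0.37 after scaling and -0.14 without M-Shp2-/- replicate 3, with 13 separated lower and 4 higher). *Hcar2*, the receptor for niacin and ketone bodies, had 163, 141 and 232 FPKM in wild-type and 118, 113 and 77.5 FPKM in M-Shp2-/- macrophages. *Itga1*, the α1 integrin chain that binds collagen, had 4.39, 3.62 and 5.01 FPKM in wild-type and 2.38, 2.36 and 2.10 FPKM in M-Shp2-/- macrophages. In both genes wild-type replicate 3 was the highest library and M-Shp2-/- replicate 3 the lowest.

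Feedback inhibitors of cytokine signaling were among the separated genes. In the list of SOCS, CISH, PIM, JAK and STAT genes, 10 of 21 were lower and 11 higher, but 6 were separated lower and 1 higher, with a median of 0.00 (18 lower and a median of -0.15 after scaling, and 13 lower, 8 higher and a median of -0.22 without wild-type replicate 3). *Socs3*, which binds gp130 and restrains IL-6 signaling, had 888, 1009.9 and 1517 FPKM in wild-type and 488, 443 and 434 FPKM in M-Shp2-/- macrophages. *Cish*, an inhibitor of STAT5 signaling, had 16.5, 11.3 and 13.1 FPKM in wild-type and 4.801, 5.51 and 1.88 FPKM in M-Shp2-/- macrophages. *Socs1*, an inhibitor of JAK kinases, had 14.4, 14.5 and 42.7 FPKM in wild-type and 9.51, 7.89 and 4.63 FPKM in M-Shp2-/- macrophages. For *Socs3* and *Socs1* wild-type replicate 3 was the highest library, and for *Cish* it was not. None of these passed the adjustment (adjusted p = 0.204 for *Socs3*, 0.388 for *Cish* and 0.455 for *Socs1* from limma), and *Cish* overlaps genes on the opposite strand.

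*Edn1*, *Inhba*, *Hbegf*, *Sphk1*, *Adora2b* and *P2ry14* were separated lower, each by more than 1 on the log2 scale. With FPKM as deposited, none of them had an adjusted p of up to 0.05 from limma. *Edn1*, the gene of the vasoconstrictor peptide endothelin-1, had 45.03, 23.1 and 124 FPKM in wild-type and 7.85, 8.08 and 8.32 FPKM in M-Shp2-/- macrophages. The M-Shp2-/- libraries were almost equal, whereas the wild-type libraries differed widely among themselves, with replicate 3 the highest (log2 fold change -2.51, and -1.87 without wild-type replicate 3). *Inhba*, the subunit of activin A, had 118, 245 and 213 FPKM in wild-type and 58.2, 58.7 and 73.5 FPKM in M-Shp2-/- macrophages. *Hbegf*, which encodes a membrane-bound ligand of the EGF receptor, had 9.87, 10.9 and 8.74 FPKM in wild-type and 3.87, 4.11 and 3.23 FPKM in M-Shp2-/- macrophages (log2 fold change -1.20, adjusted p = 0.0846 from limma). *Sphk1*, the kinase that makes sphingosine 1-phosphate, had 22.1, 42.9 and 33.6 FPKM in wild-type and 10.8, 10.9 and 9.57 FPKM in M-Shp2-/- macrophages. *Adora2b*, the low-affinity adenosine receptor, had 51.5, 60.5 and 42.0 FPKM in wild-type and 26.7, 26.4 and 20.8 FPKM in M-Shp2-/- macrophages (log2 fold change -1.02, adjusted p = 0.229 from limma), and *P2ry14*, the receptor for UDP-sugars, had 7.40, 12.6 and 24.4 FPKM in wild-type and 2.62, 2.89 and 3.72 FPKM in M-Shp2-/- macrophages. In *Sphk1* and *P2ry14* the M-Shp2-/- libraries were close together while the wild-type libraries were spread, and in *Hbegf* and *Adora2b* both groups were narrow. These last genes passed an adjusted p of 0.05 after median-of-ratios scaling. In the list of adenosine, ATP and sphingosine signaling, 13 genes were tested, 8 lower and 5 higher, with 3 separated lower and 1 higher. The list median was -0.18 (-0.33 after scaling, -0.17 without M-Shp2-/- replicate 3, and 0.05 without wild-type replicate 3, where 6 were lower and 7 higher).

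Proteases, lectins and metabolic genes contributed single members more than whole lists. Among proteases, their inhibitors and coagulation genes, 3 of 23 were separated, all lower: *Mmp13*, a collagenase, at 8.63, 12.9 and 14.2 FPKM in wild-type and 5.66, 4.38 and 5.86 FPKM in M-Shp2-/- macrophages, *F3*, tissue factor, at 10.3, 14.03 and 18.0 FPKM in wild-type and 6.84, 5.46 and 7.62 FPKM in M-Shp2-/- macrophages, and *Plaur*, the urokinase receptor, at 595, 511 and 604 FPKM in wild-type and 420.4, 422 and 300.5 FPKM in M-Shp2-/- macrophages. Of 26 scavenger, lectin, Fc receptor and alternative-activation genes, 4 were separated lower and 2 higher. *Clec7a*, which encodes the β-glucan receptor Dectin-1, had 438, 334 and 319.8 FPKM in wild-type and 237, 288 and 134 FPKM in M-Shp2-/- macrophages. *Olr1*, the oxidized LDL receptor LOX-1, had 230.2, 254 and 193 FPKM in wild-type and 149.6, 184 and 84.0 FPKM in M-Shp2-/- macrophages. *Mertk*, a receptor for the uptake of dying cells, had 6.10, 7.39 and 13.3 FPKM in wild-type and 3.28, 4.35 and 3.98 FPKM in M-Shp2-/- macrophages. In *Clec7a* and *Olr1* M-Shp2-/- replicate 3 was far below the other libraries, and their log2 fold changes of -0.78 and -0.76 were -0.46 and -0.43 without it. The higher pair were C-type lectins, *Clec4n* (Dectin-2) at 31.7, 26.3 and 17.4 FPKM in wild-type and 58.9, 35.0 and 36.0 FPKM in M-Shp2-/- macrophages and *Clec4e* (Mincle) at 3331, 3573 and 3252 FPKM in wild-type and 3719, 3789 and 4135 FPKM in M-Shp2-/- macrophages. In *Clec4e* the difference was small, with a log2 fold change of 0.20 (0.04 after scaling). In glycolysis the separated members were *Hk2*, hexokinase 2, at 156, 206 and 189.6 FPKM in wild-type and 107, 101 and 119 FPKM in M-Shp2-/- macrophages, and *Slc2a1*, the glucose transporter GLUT1, at 139.9, 152 and 118 FPKM in wild-type and 113, 98.9 and 115 FPKM in M-Shp2-/- macrophages, while the median of 27 genes was 0.08 (-0.07 after scaling, -0.07 without wild-type replicate 3 and 0.04 without M-Shp2-/- replicate 3).

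The lists of signaling genes held no gene that passed an adjusted p of 0.05 from limma, and their medians ranged from below to near that of all genes. Over all genes 3.07% were separated lower and 16.0% higher. Of 31 tested TLR and MyD88 pathway genes 0 were separated lower and 3 higher, with a median of -0.09 (-0.25 after scaling, with 22 lower, and 6 separated lower and 9 higher without M-Shp2-/- replicate 3), and 0 passed an adjusted p of 0.05 from limma, with 0 lower and 3 higher at an unadjusted p under 0.05. Among the 3 was *Slc15a4*, an endosomal transporter needed for TLR7 signaling, at 28.4, 25.3 and 24.8 FPKM in wild-type and 39.7, 40.9 and 31.8 FPKM in M-Shp2-/- macrophages. Of 29 NF-κB subunits and inhibitors, 20 were lower, with 6 separated lower and 1 higher and a median of -0.22 (-0.37 after scaling, with 27 lower, and -0.13 without either wild-type replicate 3 or M-Shp2-/- replicate 3, with 12 separated lower in the latter case). *Nfkb2*, the gene of p100 and p52, had 276, 247 and 272 FPKM in wild-type and 207, 206 and 193 FPKM in M-Shp2-/- macrophages. *Tnip1*, which helps the deubiquitinase A20 restrain NF-κB, had 363, 357 and 436 FPKM in wild-type and 304, 302 and 281 FPKM in M-Shp2-/- macrophages. *Zc3h12a*, an RNase that degrades *Il6* mRNA, had 223, 215 and 243 FPKM in wild-type and 190.1, 182 and 156 FPKM in M-Shp2-/- macrophages. *Nfkbia*, the gene of the inhibitor IκBα and itself a target of NF-κB, overlapped at 466, 439 and 622 FPKM in wild-type and 397, 400.5 and 439.9 FPKM in M-Shp2-/- macrophages. Among SHP2 docking partners, SHP1 and the RAS-ERK core, 15 of 23 were higher and 5 separated higher, with a median of 0.09, which scaling turned to -0.06. *Cd200r1*, the inhibitory receptor for CD200, had 32.3, 24.1 and 17.4 FPKM in wild-type and 39.8, 42.1 and 36.0 FPKM in M-Shp2-/- macrophages. Feedback genes of ERK signaling had a median of 0.02 (-0.10 after scaling, -0.04 without wild-type replicate 3 and -0.16 without M-Shp2-/- replicate 3), with 1 of 17 separated lower, *Dusp16* at 36.6, 35.7 and 41.6 FPKM in wild-type and 24.5, 20.9 and 33.2 FPKM in M-Shp2-/- macrophages, and 3 higher.

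Immediate early and AP-1 genes divided. Of 28 tested, 18 were lower and 10 higher, with 5 separated lower and 3 higher. The median was -0.22 (-0.36 after scaling, -0.07 without wild-type replicate 3 and -0.16 without M-Shp2-/- replicate 3). *Junb* had 745, 725 and 1275 FPKM in wild-type and 513, 499.6 and 625 FPKM in M-Shp2-/- macrophages. *Fosl2* had 84.2, 101 and 107 FPKM in wild-type and 51.7, 39.5 and 83.4 FPKM in M-Shp2-/- macrophages. *Ier2* had 45.4, 43.0 and 68.8 FPKM in wild-type and 29.7, 26.3 and 33.2 FPKM in M-Shp2-/- macrophages. The first pair encode subunits of AP-1. *Jun*, another AP-1 subunit, lay on the other side at 32.0, 33.6 and 27.8 FPKM in wild-type and 41.4, 33.7 and 59.8 FPKM in M-Shp2-/- macrophages. In *Jun* the groups were separated only narrowly, between wild-type replicate 2 and M-Shp2-/- replicate 2, and the log2 fold change of 0.48 was 0.26 without M-Shp2-/- replicate 3, and *Jun* and *Junb* overlap other genes on the opposite strand.

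All 44 tested type I interferon-stimulated genes were lower in M-Shp2-/- macrophages, with all libraries and without wild-type replicate 3. Of these, 26 were separated, against 3.07% of all genes, and 27 had an unadjusted p under 0.05, while 0 passed an adjusted p of 0.05 from limma. The size of the difference rested on wild-type replicate 3. The list summed to 2039, 2603 and 5121 FPKM in wild-type and 1267, 1333 and 1808 FPKM in M-Shp2-/- libraries, with this library the highest by far. The median log2 fold change was -1.05 with it and -0.56 without it, against 0.15 and 0.08 over all genes tested. Without it 26 genes were again separated, against 617 of the 11450 genes. Without M-Shp2-/- replicate 3 all 44 were lower and 42 separated, against 887 genes, with a median of -1.32.

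*Irf7*, the transcription factor that amplifies type I interferon, had 42.5, 66.1 and 194 FPKM in wild-type and 15.4, 16.4 and 34.3 FPKM in M-Shp2-/- macrophages (log2 fold change -1.94, and -1.32 without wild-type replicate 3). *Oasl1*, which limits the translation of *Irf7* mRNA, had 29.3, 40.6 and 135 FPKM in wild-type and 11.7, 13.2 and 10.98 FPKM in M-Shp2-/- macrophages. *Rtp4*, an interferon-induced chaperone of receptors, had 22.8, 42.0 and 107 FPKM in wild-type and 9.14, 9.77 and 14.4 FPKM in M-Shp2-/- macrophages. In all 3 genes wild-type replicates 1 and 2 also lay above every M-Shp2-/- library. *Cxcl10*, an interferon-induced chemokine for T cells, had 16.3, 16.9 and 139.6 FPKM in wild-type and 6.11, 4.14 and 12.8 FPKM in M-Shp2-/- macrophages, with a log2 fold change of -2.14 that became -1.15 without wild-type replicate 3. The interferon genes *Ifnb1* and *Ifna4*, chosen after their values were seen, were not tested. *Ifnb1* was listed at 0, 0 and 0.0314 FPKM in wild-type and 0.0309, 0 and 0 FPKM in M-Shp2-/- libraries, and *Ifna4* at 0 in all 6, so that no difference between the groups was detectable in them at this depth.

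The GTPases of the GBP and IRG families, which act on vacuoles that hold pathogens and respond strongly to interferon gamma, showed the same picture. All 11 tested were lower, also without wild-type replicate 3, and 6 were separated. The median was -1.14, and -0.57 without wild-type replicate 3 and -1.21 without M-Shp2-/- replicate 3, where 10 were separated. The list summed to 381, 392 and 1137 FPKM in wild-type and 229, 305 and 325 FPKM in M-Shp2-/- libraries. *Igtp* had 5.76, 9.89 and 32.1 FPKM in wild-type and 2.62, 4.34 and 4.69 FPKM in M-Shp2-/- macrophages. *Irgm2* had 6.63, 11.9 and 33.5 FPKM in wild-type and 4.19, 4.34 and 6.15 FPKM in M-Shp2-/- macrophages. *Gbp5* had 97.0, 81.5 and 284 FPKM in wild-type and 49.1, 67.8 and 59.1 FPKM in M-Shp2-/- macrophages. In these genes the lowest wild-type library lay only slightly above the highest M-Shp2-/- library, and *Igtp* and *Irgm2* overlap each other on the same strand, so their reads could be shared. Of the 21 tested genes of MHC class I presentation, 20 were lower and 10 separated, all lower, with a median of -0.40 (-0.22 without wild-type replicate 3, with 17 lower). *Tap1*, the peptide transporter, had 45.7, 70.8 and 182 FPKM in wild-type and 30.6, 33.0 and 43.0 FPKM in M-Shp2-/- macrophages. *Psmb9*, a subunit of the immunoproteasome that overlaps *Tap1* on the opposite strand, had 46.1, 58.8 and 94.3 FPKM in wild-type and 33.4, 37.4 and 36.2 FPKM in M-Shp2-/- macrophages. *Nlrc5*, the transactivator of MHC class I genes, had 40.1, 57.0 and 88.5 FPKM in wild-type and 33.3, 36.6 and 39.1 FPKM in M-Shp2-/- macrophages. MHC class II and costimulatory genes had a median of -0.25, with 2 of 14 separated lower, *Cd83* at 89.3, 68.6 and 96.3 FPKM in wild-type and 49.6, 64.9 and 29.5 FPKM in M-Shp2-/- macrophages and *Cd274*, the gene of PD-L1, at 245, 240.5 and 369 FPKM in wild-type and 168, 199.9 and 179 FPKM in M-Shp2-/- macrophages. The *Cd83* log2 fold change of -0.86 was -0.56 without M-Shp2-/- replicate 3, and without that library the median of the list was -0.04. The list median was -0.15 without wild-type replicate 3 and -0.41 after scaling.

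**Figure D4:**
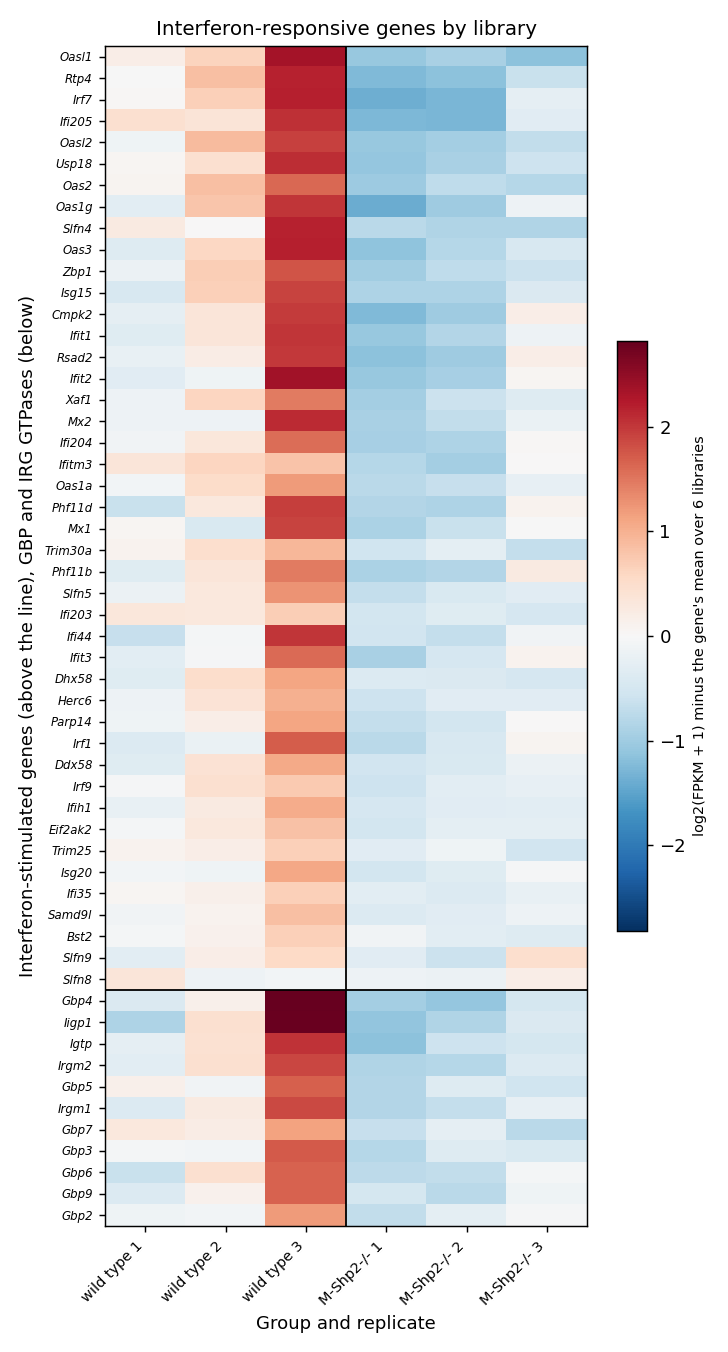
Level of each tested type I interferon-stimulated gene and each tested GBP or IRG GTPase in the 6 libraries, as log2(FPKM + 1) minus the mean of the gene over the libraries (color). Wild-type replicate 3 is the highest library for nearly all genes, and the summed FPKM of the interferon-stimulated list is 2039, 2603 and 5121 in wild-type and 1267, 1333 and 1808 in M-Shp2-/- libraries.

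The windows of *Cxcl10* (chr5:92348840-92349139, minus strand) and *Igtp* (chr11:58199306-58199605, plus strand), of the same length and source as for *Il6*, are shown because interferon-responsive genes lay lower together. Capitals mark matches to the κB and AP-1 motifs and to the interferon-stimulated response element GAAANNGAA on either strand, with no overlap between matches.
Cxcl10: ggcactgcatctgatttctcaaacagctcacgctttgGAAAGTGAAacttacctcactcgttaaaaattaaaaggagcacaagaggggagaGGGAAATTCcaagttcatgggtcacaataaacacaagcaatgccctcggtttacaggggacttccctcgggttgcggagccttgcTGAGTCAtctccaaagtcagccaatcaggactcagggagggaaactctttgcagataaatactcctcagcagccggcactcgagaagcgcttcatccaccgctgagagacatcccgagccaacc
Igtp: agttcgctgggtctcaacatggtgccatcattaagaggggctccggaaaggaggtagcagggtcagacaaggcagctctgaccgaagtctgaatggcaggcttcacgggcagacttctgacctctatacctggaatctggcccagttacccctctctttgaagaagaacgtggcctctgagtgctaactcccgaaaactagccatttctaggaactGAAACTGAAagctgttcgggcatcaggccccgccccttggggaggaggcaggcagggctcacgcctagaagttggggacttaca
The *Cxcl10* window holds 1 match to each of the 3 motifs, and the *Igtp* window holds 1 match to the interferon-stimulated response element. That motif is in the windows of 606 of the 8272 tested genes (7.33%), of 21 of 35 interferon-stimulated genes and of 7 of 7 GBP and IRG GTPase genes with a window, and also of 1 of 10 IL-1 family genes and 2 of 17 other cytokine genes. The motif was shortened by a letter after the data were seen, and the lists were chosen with earlier results of these data known. These shares are therefore a description and not a test.

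*Ifng* and *Il17a*, genes of cytokines that lymphocytes make, were separated lower too, neither with an adjusted p of up to 0.05 from limma. *Ifng*, the gene of interferon gamma, which T and NK cells make, had 5.06, 11.9 and 38.8 FPKM in wild-type and 0.701, 1.35 and 2.21 FPKM in M-Shp2-/- macrophages, the largest decrease in log2 fold change among separated genes (-2.64, adjusted p = 0.424 from limma, and -1.92 without wild-type replicate 3). *Il17a*, made by T cells, had 0.5004, 5.91 and 1.31 FPKM in wild-type and 0.0198, 0 and 0.2997 FPKM in M-Shp2-/- macrophages. *Ifng* was highest in wild-type replicate 3 and *Il17a* in wild-type replicate 2. The T cell list, with *Lck* as its most abundant gene, summed to 2.60, 4.84 and 10.39 FPKM in wild-type and 2.84, 2.14 and 6.90 FPKM in M-Shp2-/- libraries, and the NK cell list, with *Nkg7*, to 0.247, 1.36 and 3.83 FPKM and 0.0865, 0.202 and 1.34 FPKM. Both lists were highest in wild-type replicate 3, no member of either was at 0 in all 6 libraries, and their part in the level of *Ifng*, *Il17a* and the interferon-responsive genes was not tested. *Gm47283*, annotated on chromosome Y although the Y-linked markers were at 0, shows a further pattern that depends on this library, at 13.1, 10.3 and 0.185 FPKM in wild-type and 0.0606, 0 and 0.172 FPKM in M-Shp2-/- macrophages. Without wild-type replicate 3, which lay at the level of the M-Shp2-/- libraries, *Gm47283* passed an adjusted p of 0.05 from limma.

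On the higher side the largest difference was in lysozyme. *Lyz1*, the gene of lysozyme P (ENSMUSG00000069515, chromosome 10, 117287797 to 117292868), had 20.9, 33.6 and 13.1 FPKM in wild-type and 311, 276 and 110.0 FPKM in M-Shp2-/- macrophages. Even the lowest M-Shp2-/- library, replicate 3, lay far above the highest wild-type library, replicate 2. The mean was 10.3-fold that of wild type. The log2 fold change was 3.27 (standard error 0.47), and with the spread within the groups the adjusted p was 0.184 from limma. *Lyz2*, the neighbouring gene of lysozyme M (ENSMUSG00000069516, chromosome 10, 117277331 to 117282321), had 7440.3, 10228 and 7951 FPKM in wild-type and 4863, 4743 and 5407 FPKM in M-Shp2-/- macrophages, which is 58.6% of wild type (log2 fold change -0.76, adjusted p = 0.388 from limma). In the widely used *Lyz2*-Cre line Cre is inserted in *Lyz2* itself, and the presence of that allele and the loss of SHP2 cannot be told apart in these values. The genes are close paralogs. Of 1214 windows of 50 bases in the longest *Lyz1* transcript, 195 (16.1%) also occur in *Lyz2*, so that reads could be placed on either gene. The FPKM of *Lyz1* were 0.281%, 0.329% and 0.165% of those of *Lyz2* in wild-type and 6.39%, 5.81% and 2.03% in M-Shp2-/- libraries. *Lyz2*, the gene of far higher FPKM, was lower in the M-Shp2-/- libraries, in which *Lyz1* was higher. The part of misplaced reads in the values of either gene was not tested. Their starts are shown from 100 bases before to 50 after the transcription start (RefSeq, GRCm38.p6), at chr10:117292819-117292968, minus strand for *Lyz1* and at chr10:117282223-117282372, minus strand for *Lyz2*, with capitals where their letters differ without a gap.
Lyz1: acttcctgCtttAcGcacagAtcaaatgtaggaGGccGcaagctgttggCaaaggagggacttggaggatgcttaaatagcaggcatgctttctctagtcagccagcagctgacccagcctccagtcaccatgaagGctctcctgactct
Lyz2: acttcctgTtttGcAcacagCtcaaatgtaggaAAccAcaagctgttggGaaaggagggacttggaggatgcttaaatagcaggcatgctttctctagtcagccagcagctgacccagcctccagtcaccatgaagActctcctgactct
Of these 150 letters, 9 differ and 94.0% are equal.

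Linker and core histones stood higher as a list. Of 88 histone genes, 15 were tested. Most histone mRNAs lack a poly-A tail, and how well they were captured here was not tested. Of the 15, 14 were higher (11 after scaling) and 8 separated, all higher, against 16.0% of all genes. The median was 0.38 (0.26 after scaling and 0.36 without wild-type replicate 3). It was 0.40 without M-Shp2-/- replicate 3, where 10 were separated higher, against 5059 of all genes. *Hist1h1c*, the gene of the linker histone H1.2, had 6.501, 5.68 and 4.14 FPKM in wild-type and 14.9, 14.5 and 14.1 FPKM in M-Shp2-/- macrophages. The M-Shp2-/- libraries were nearly equal and far above every wild-type library, and the adjusted p of 0.103 from limma (log2 fold change 1.28, standard error 0.16) was the smallest of any higher gene. *H1f0*, the linker histone of resting and differentiated cells, had 10.98, 13.7 and 7.76 FPKM in wild-type and 28.6, 24.8 and 22.6 FPKM in M-Shp2-/- macrophages. *Hist1h2bc*, an H2B gene, had 15.8, 10.6 and 13.2 FPKM in wild-type and 25.2, 24.1 and 20.9 FPKM in M-Shp2-/- macrophages. *Hist1h4i*, an H4 gene, had 2.79, 4.34 and 3.40 FPKM in wild-type and 5.45, 6.08 and 7.45 FPKM in M-Shp2-/- macrophages. In all 4 genes the groups were clearly apart, and the log2 fold changes of *H1f0*, *Hist1h2bc* and *Hist1h4i* were 1.18, 0.79 and 0.71.

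Targets of NRF2, the factor that is released from KEAP1 under oxidative stress, and glutathione genes were the function list with the highest median. Of 27 tested, 25 were higher and 16 separated, all higher, with a median of 0.43. After median-of-ratios scaling 23 were higher with a median of 0.28, and without wild-type replicate 3, 22 were higher, 17 were separated higher and 1 lower, with a median of 0.30. The median was 0.42 without M-Shp2-/- replicate 3, where 17 were separated higher, against 5059 of all genes. At an unadjusted p under 0.05, 12 were higher and 0 lower, and 0 passed an adjusted p of 0.05 from limma. *Gclm*, the modifier subunit of the enzyme that limits glutathione synthesis, had 102, 82.1 and 41.7 FPKM in wild-type and 143, 135 and 161 FPKM in M-Shp2-/- macrophages. *Slc48a1*, a heme transporter, had 152, 129.7 and 86.7 FPKM in wild-type and 256, 222 and 233 FPKM in M-Shp2-/- macrophages. *Osgin1*, a gene induced by oxidative stress, had 6.66, 4.66 and 3.00 FPKM in wild-type and 9.70, 11.7 and 9.60 FPKM in M-Shp2-/- macrophages. *Gsta3*, a glutathione S-transferase, had 1.53, 1.36 and 0.240 FPKM in wild-type and 3.89, 1.83 and 4.49 FPKM in M-Shp2-/- macrophages. In each of these genes the M-Shp2-/- libraries lay above all wild-type libraries, and wild-type replicate 3 was the lowest library. Their log2 fold changes were 1.04, 0.98, 1.02 and 1.12 with all libraries, and 0.67, 0.75, 0.78 and 0.79 without it. *Slc48a1* and *Gclm* overlap other genes on the opposite strand.

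Among the other large increases, *Slc43a2*, a transporter of branched-chain and other neutral amino acids, had 23.8, 13.7 and 13.1 FPKM in wild-type and 44.4, 44.2 and 36.2 FPKM in M-Shp2-/- macrophages (log2 fold change 1.30, adjusted p = 0.299 from limma). The groups were well apart. *Cdca7*, a gene linked to chromatin remodeling in dividing cells, had 2.04, 2.54 and 1.05 FPKM in wild-type and 5.50, 5.57 and 4.27 FPKM in M-Shp2-/- macrophages. *Mtss1*, which shapes membranes and actin, had 10.6, 8.40 and 7.53 FPKM in wild-type and 26.1, 25.7 and 11.8 FPKM in M-Shp2-/- macrophages. *Pianp*, a ligand of the paired receptor PILRα, had 5.06, 2.29 and 4.35 FPKM in wild-type and 12.2, 11.5 and 5.32 FPKM in M-Shp2-/- macrophages. *Nipal3*, of a family of magnesium transporters, had 2.38, 1.38 and 1.16 FPKM in wild-type and 6.11, 6.04 and 2.64 FPKM in M-Shp2-/- macrophages. In *Mtss1*, *Pianp* and *Nipal3* M-Shp2-/- replicate 3 was well below the other libraries of its group. *Mgme1*, a mitochondrial exonuclease that overlaps *Snx5* on the opposite strand, had 1.47, 1.53 and 2.53 FPKM in wild-type and 3.69, 6.90 and 6.76 FPKM in M-Shp2-/- macrophages. *Novel00113* and *Novel00210*, identifiers of the authors' own assembly with no annotation used here, had 0.299, 0.166 and 3.69 FPKM in wild-type and 5.23, 9.32 and 10.7 FPKM in M-Shp2-/- macrophages, and 0.908, 1.55 and 3.12 FPKM in wild-type and 10.97, 3.26 and 3.89 FPKM in M-Shp2-/- macrophages. *Ccn2*, a matricellular protein typical of fibroblasts and mesothelial cells, had 0.362, 0.889 and 0.0135 FPKM in wild-type and 3.65, 1.23 and 6.04 FPKM in M-Shp2-/- macrophages. *Tinagl1*, another matricellular protein, had 0.544, 0.761 and 0.207 FPKM in wild-type and 2.48, 1.28 and 2.46 FPKM in M-Shp2-/- macrophages. M-Shp2-/- replicate 3, the highest library of *Ccn2*, also had the highest sum of the fibroblast markers, at 68.5, 312 and 53.3 FPKM in wild-type and 139, 54.3 and 599 FPKM in M-Shp2-/- libraries with 7 of 9 tested, *Col1a1* as the most abundant and none at 0 in all 6. The part of these cells in *Ccn2* and *Tinagl1* was not tested.

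**Figure D5:**
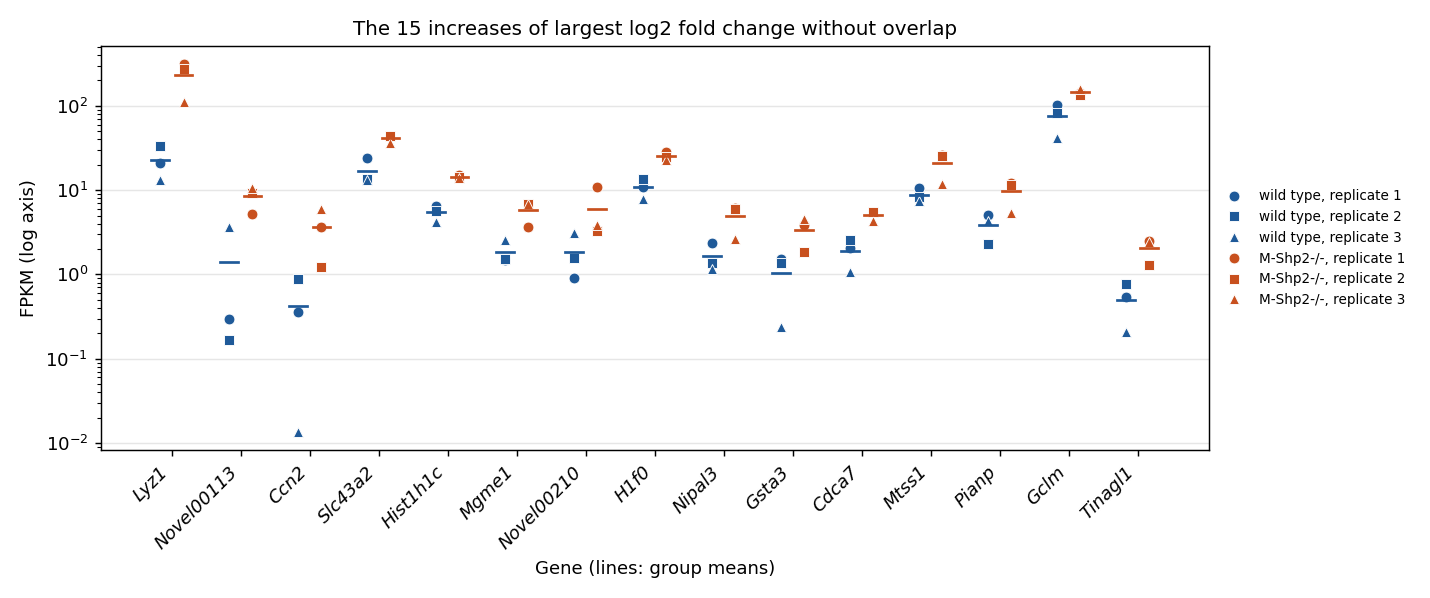
FPKM (log axis) of the 15 genes with the largest increases in log2 fold change among those whose M-Shp2-/- libraries all lie above the wild-type libraries, each point a library and lines at the group means. *Lyz1* spans 13.1 to 33.6 FPKM in wild-type and 110.0 to 311 FPKM in M-Shp2-/- libraries; none of the 15 passes an adjusted p of 0.05 from limma, and in all of them the log2 fold change is positive after scaling too.

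Lysosomal and lipid genes stood slightly higher without a shift beyond that of all genes. Of 51 lysosomal and V-ATPase genes, 38 were higher, and 10 were separated higher and 2 lower, with a median of 0.14, which scaling turned to -0.02. Without M-Shp2-/- replicate 3 the median was 0.21 and 32 were separated higher and 3 lower, against 5059 higher and 887 lower of all genes. The lower ones with all libraries were *Ctsc*, cathepsin C, at 168, 192 and 189 FPKM in wild-type and 147, 147 and 122 FPKM in M-Shp2-/- macrophages, and *Npc2*, a carrier of cholesterol, at 617, 596 and 706 FPKM in wild-type and 542, 593 and 422 FPKM in M-Shp2-/- macrophages. Among the higher ones, *Psap*, the precursor of the saposins that help degrade sphingolipids, had 5596, 5235 and 5259.7 FPKM in wild-type and 6165, 6883 and 6338 FPKM in M-Shp2-/- macrophages. *Ctsd*, cathepsin D, had 3176, 3540.2 and 2635 FPKM in wild-type and 3680.0, 4101 and 3678 FPKM in M-Shp2-/- macrophages. *Gaa*, the lysosomal glucosidase, had 211, 197 and 140.2 FPKM in wild-type and 298, 280.4 and 212 FPKM in M-Shp2-/- macrophages. *Lipa*, the acid lipase that releases cholesterol and fatty acids in lysosomes, had 205, 126 and 149.7 FPKM in wild-type and 264, 296 and 257 FPKM in M-Shp2-/- macrophages (log2 fold change 0.79, 0.63 after scaling). *Cpt1a*, which brings fatty acids into mitochondria for oxidation, had 6.32, 5.68 and 6.45 FPKM in wild-type and 10.3, 8.60 and 10.9 FPKM in M-Shp2-/- macrophages. *Lipa* and *Cpt1a* were the separated higher genes among 23 genes of fatty acid handling, and *Dgat2*, which makes triglycerides, was the lower one, at 4.72, 6.99 and 4.46 FPKM in wild-type and 3.47, 2.60 and 3.72 FPKM in M-Shp2-/- macrophages. For cholesterol synthesis and LXR targets the median was 0.11, with 1 separated gene in each direction. It was -0.04 after scaling, -0.03 without wild-type replicate 3 and 0.34 without M-Shp2-/- replicate 3, where 13 were separated higher and 3 lower. *Apoe*, the lower one, had 5369, 6437 and 10833 FPKM in wild-type and 5301, 4870.1 and 5309 FPKM in M-Shp2-/- macrophages, with wild-type replicate 3 far above the other libraries.

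Of 16 inflammasome and pyroptosis genes, 5 were separated, all higher, against a list median of -0.02 (-0.17 after scaling and 0.13 without M-Shp2-/- replicate 3). *P2rx7*, the ATP-gated channel upstream of NLRP3, had 9.35, 11.4 and 9.88 FPKM in wild-type and 14.6, 15.6 and 19.1 FPKM in M-Shp2-/- macrophages. *Panx1*, a channel that releases ATP, had 8.83, 8.22 and 3.71 FPKM in wild-type and 14.3, 12.6 and 12.1 FPKM in M-Shp2-/- macrophages. *Nlrp3* itself overlapped, at 248, 232 and 375 FPKM in wild-type and 179, 176 and 361 FPKM in M-Shp2-/- macrophages. Cell cycle and DNA replication genes had a median of 0.33 (0.22 after scaling and 0.14 without wild-type replicate 3 or without M-Shp2-/- replicate 3), with 34 of 40 higher (31 after scaling) and 5 separated higher. Over all genes 77.4% were higher and 16.0% separated higher, so the 5 of 40 lie below the share of all genes. *Cdk4* had 124, 129.7 and 97.6 FPKM in wild-type and 160.3, 148 and 158 FPKM in M-Shp2-/- macrophages. *Mcm3*, a subunit of the replicative helicase, had 23.5, 24.7 and 20.8 FPKM in wild-type and 28.6, 26.8 and 30.9 FPKM in M-Shp2-/- macrophages, whereas *Ccnd2*, a D-type cyclin, was separated lower at 18.7, 14.9 and 19.9 FPKM in wild-type and 11.1, 11.7 and 7.90 FPKM in M-Shp2-/- macrophages. Of 15 circadian genes tested, 3 were separated higher and 2 lower. Their median was 0.16, near that of all genes (0.04 after scaling, 0.18 without wild-type replicate 3, and -0.03 without M-Shp2-/- replicate 3, where 8 were lower and 7 higher). Circadian genes included *Tef* and *Bhlhe41* on the higher side, at 14.9, 16.5 and 12.97 FPKM in wild-type and 23.2, 19.7 and 25.6 FPKM in M-Shp2-/- macrophages, and 75.8, 71.4 and 53.3 FPKM in wild-type and 135, 129 and 81.3 FPKM in M-Shp2-/- macrophages, and *Nfil3*, a repressor that binds the same sites as TEF, on the lower side at 10.39, 14.8 and 11.8 FPKM in wild-type and 6.23, 5.05 and 9.94 FPKM in M-Shp2-/- macrophages.

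Among the remaining separated genes, *Phgdh*, the enzyme that starts serine synthesis and an ATF4 target, had 102, 116 and 106 FPKM in wild-type and 137, 149.7 and 179 FPKM in M-Shp2-/- macrophages. *Vegfb*, a member of the VEGF family, had 26.6, 23.6 and 23.002 FPKM in wild-type and 40.4, 33.7 and 31.4 FPKM in M-Shp2-/- macrophages. These sat in lists with medians near or below that of all genes: the ATF4 and unfolded-protein list had a median of 0.17, with 2 of 26 separated, both higher, and the growth factor list had a median of 0.05 (-0.02 after scaling, -0.09 without wild-type replicate 3 and -0.11 without M-Shp2-/- replicate 3), with 2 of 17 separated in each direction. *Slc7a2*, an arginine transporter, was separated lower at 376, 837 and 411 FPKM in wild-type and 162, 168 and 345 FPKM in M-Shp2-/- macrophages. Its list of 15 arginine, nitric oxide and polyamine genes had a median of -0.16 (-0.32 after scaling, with 11 lower, and close to 0 without wild-type replicate 3). Nuclear genes of the respiratory chain had a median of 0.13 over 75 genes, close to the 0.15 of all genes, and -0.02 after scaling. It was 0.05 without wild-type replicate 3 and 0.22 without M-Shp2-/- replicate 3, where 58 were separated higher, against 5059 of all genes. Ribosomal protein genes had 0.02 over 88 genes, and -0.13 after scaling, which turned the count from 59 higher to 82 lower. Zinc-finger genes of the Zfp series had 0.19 over 250 genes, with 45 separated higher, near the share of 16.0% of all genes, and 3 lower, and with 140 higher and 7 lower without M-Shp2-/- replicate 3, where the median was 0.26. Their median was 0.06 after scaling and 0.08 without wild-type replicate 3, where 48 were separated higher and 9 lower. Complement genes were not separated in either direction (0 of 16, median -0.19, -0.35 without wild-type replicate 3, and 6 lower and 1 higher with a median of -0.58 without M-Shp2-/- replicate 3), with 1 lower and 0 higher at an unadjusted p under 0.05 from limma. Other protein tyrosine phosphatases had a median of -0.02 over 21 genes, with 0 separated lower and 3 higher, against 3.07% and 16.0% of all genes. *Ptpn4*, the most abundant of the 3, had 4.55, 4.71 and 3.75 FPKM in wild-type and 7.36, 6.52 and 5.69 FPKM in M-Shp2-/- macrophages.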

How the data were processed

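Poly-A RNA of each library was sequenced in paired ends. The authors aligned the reads with HISAT2 2.0.4 and counted them per gene with HTSeq 0.9.1 (CASAVA 1.8 is also named), and deposited FPKM for 54059 genes. The tool that made FPKM from counts, the annotation and the strand setting are not given in the sources used. Gene spans in the deposited files overlap those of GENCODE M21 in 99.9%, so positions are GRCm38. Of all genes, 27396 are at 0 in all 9 libraries, and 353 are not in GENCODE M21, 258 of them from the authors' own assembly.

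Depth was taken from the steps between values: 96.3% to 96.7% of values of up to 50 reads were whole reads within 0.05 at the mean transcript length of the gene. At such depth a gene of 1 FPKM rests on many reads, and the spread between libraries sets the precision.

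Genes whose FPKM averaged 1 or more over the 9 libraries were compared with limma 3.58.1 in R 4.3.3 (lmFit, eBayes with a trend, two-sided) on log2(FPKM + 1) of 6 libraries, with Benjamini-Hochberg adjustment over all genes tested. The code was tested on simulated data. Python 3.11.15 (pandas 2.3.3, numpy 2.4.6) made the tables, and matplotlib 3.10.9 the plots. The SHP099 libraries entered only the filter and a single alternative fit.

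Genes named were taken from *Ptpn11*, *Lyz2*, *Lyz1* and *Tlr7*, every gene at an adjusted p of at most 0.05, the 15 largest decreases and 15 largest increases among genes whose groups do not overlap, in each function list and direction up to 4 such members of largest difference and the member of highest mean, and in each marker list the most abundant gene and those at 0 in all 6 libraries. Names outside this rule are marked as such. The members and lists were chosen with earlier results of these data known, and the motifs were shortened by a letter at an end (κB and interferon-stimulated response element) after the data were seen.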

Additional observations from a re-analysis of the deposited data

How the results depend on the processing

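The count of genes called was 1 with a pseudocount of 0.1 or 5, with a mean FPKM of at least 5, with equal sums, with quantile normalization, with voom and with no fold threshold. It was 0 with no filter on low FPKM (26663 genes tested), 0 with no trend, 0 with the replicate number as a block, 2 with all 9 libraries, 3 with median-of-ratios scaling, 9 at an adjusted p of at most 0.05 with a log2 fold change of at least 1, and 0 to 0 when each library was left out in turn. Lower genes at an adjusted p of at most 0.05 numbered 6 with no filter, 6 with no trend, 6 with all 9 libraries and 2 with the block, and 1 to 8 when a library was left out. Otherwise they numbered 8 to 11. Higher genes numbered 5 with no filter, 1 with quantile normalization (*Hist1h1c*), 1 with all 9 libraries (*Atp13a2*, outside the rule on names and chosen after its values were seen) and 0 elsewhere. *Ptpn11* stayed lower in all alternatives, with an adjusted p above 0.05 under the block (log2 fold change -1.19) and in 4 of the 6 fits without a library, where the log2 fold change ranged from -1.24 to -1.15. The labels do not say whether libraries with the same number belong together. Residuals of wild-type and M-Shp2-/- libraries with the same number correlated at 0.492, -0.431 and 0.185, and those with different numbers at -0.627 to 0.544. With so few libraries these values cannot decide whether the libraries are paired. A fit without a library has fewer degrees of freedom. For the other alternatives, the cause was not tested. Over the 124 genes named in the text with a test, of the values under up to 17 alternatives each, 1995 kept direction and side of 0.05, 74 kept direction and lost it, 9 kept direction and gained it, and 11 reversed, all in marker genes whose groups overlap: *Fn1* at 0.40 without wild-type replicate 2 and 0.27 without M-Shp2-/- replicate 2 (-0.60 to 0.40 over the fits without a library), *Serpinb2* at 0.01 and 0.17 without the same libraries (-1.18 to 0.17), *Igkc* at -0.01 without wild-type replicate 1 and -0.49 without M-Shp2-/- replicate 3 (-0.49 to 1.87), *Lck* at 0.15 without wild-type replicate 3 and 0.01 without M-Shp2-/- replicate 2 (-0.22 to 0.15), *Wt1* at -0.18 without M-Shp2-/- replicate 3 (-0.18 to 0.74), and *Xist* at -0.0111 with median-of-ratios scaling and -0.0351 without wild-type replicate 3 (-0.0351 to 0.33). The cause of these reversals was not tested. All 74 values that lost 0.05 belong to the 10 genes lower at that threshold, since no other named gene could lose it. Most of the 1995 are values of genes that were above 0.05 to begin with, so they do not measure how stable the 10 genes were. Depth limits genes near 0 FPKM, such as *Ifnb1*.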
